A study of Danio rerio with 18 samples.

Results

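Wnt ligands, their receptors, the inhibitors that restrain them and the intracellular parts and targets of the pathway were followed through zebrafish caudal fin regeneration by bulk RNA sequencing. The members were the genes whose symbol, with letter case ignored, matched a fixed set of Wnt pathway names (wnt, fzd, lrp5, lrp6, ror1, ror2, rspo, lgr4 to lgr6, rnf43, znrf3, dkk, sfrp, frzb, wif1, notum, axin, nkd, ctnnb1, lef1 and tcf7 genes). They numbered 81 of the 32520 gene IDs of the table. By role they comprised 26 ligands, 18 receptors, 7 genes of the R-spondin axis, 15 secreted inhibitors, 9 intracellular feedback genes and 6 transcription genes. Symbols were looked up in a gene name table, where many zebrafish genes carry the human symbol in capitals. A total of 20 members share a symbol with another ID and are therefore given with their ID, and reads of near-identical copies may have been split between them.

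The fish were of the outbred Ekkwill strain and about 4 to 8 months old. The knockout (KO) fish were homozygous for a deletion of s1, a non-coding element described as a regeneration-associated silencer, and were derived from Ekkwill, and the wild-type (WT) fish were their siblings. Fins were cut at 50% of their length and tissue was collected at 0 (freshly cut), 1 and 4 days post amputation (dpa). The 6 groups held 3 libraries apiece, each from a pool of clips from 10 fish, so the replicates are biological but no value belongs to a single animal.

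In the canonical branch of the pathway, a Wnt ligand binds a Frizzled receptor and an LRP5 or LRP6 co-receptor, the complex that destroys β-catenin is inhibited, and β-catenin enters the nucleus to activate target genes with LEF1 and TCF proteins. R-spondins strengthen the signal by removing the ubiquitin ligases that clear Frizzled from the cell surface, while DKK, SFRP, WIF1 and NOTUM proteins weaken it outside the cell. Non-canonical ligands such as WNT5 and WNT11 act on cell polarity and movement through other effectors. In the zebrafish fin, canonical Wnt signalling is known to be required for the formation and growth of the blastema, the mass of proliferating cells from which the fin regrows, and wnt5b overexpression is known to restrain it.

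Values are normalised read counts, that is reads per gene scaled by a size factor for each library. They are not divided by gene length, so levels are compared between libraries and not between genes. A gene was tested if it reached 10 in at least 3 libraries, which left 22779 genes and 70 members. A change is called where its adjusted p in a limma fit across all tested genes was under 0.05, and log2 changes are of the normalised count plus 1. Folds are ratios of group means of the counts, while log2 changes are differences of mean log2 values. A fold and the log2 change beside it can therefore differ. Of the 11 members not tested, 8 were listed at 0 in all 18 libraries. These were AXIN1, dkk1b, FZD10, FZD4, a copy of FZD3, both copies of WNT8A and WNT9B, and 17.4% of all IDs were likewise at 0 throughout. Such a 0 may be a matter of annotation or counting and does not show that the gene is silent in the fin. WNT8B, wnt11f2 and nkd3l had reads but stayed under the filter, with 67, 41 and 27 reads in all libraries together.

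Libraries held 58.6 M to 155 M assigned reads (M, 1e6), and 5 dominant genes took 2.71% to 90.5% of them, which left 10.5 M to 75.5 M for all others. This share was 2.71% to 57.9% at 0 dpa, 10.9% to 84.3% at 1 dpa and 79.0% to 90.5% at 4 dpa. In WT it was 3.61% to 34.3%, 58.3% to 84.3% and 87.5% to 90.5% at these times, without overlap. In KO it was 2.71% to 57.9% at 0 dpa and 10.9% to 76.9% at 1 dpa, which overlapped. At 4 dpa it was 79.0% to 82.9% in KO, above all earlier KO libraries. Share and time are thus confounded in WT and, for 4 dpa against the earlier times, in KO as well. A fit with the share as a covariate cannot separate them there. The share was under 20% in 4 libraries, called low-share libraries here, namely KO 1 dpa replicate 1 and, among the uncut fins, WT replicates 2 and 3 and KO replicate 2. Fits without them keep replicate 1 as the only uncut WT library. A WT call against 0 dpa that is lost in such a fit cannot be told from lost replication. For 41 of the 70 tested members (58.6%), all 3 low-share libraries of 0 dpa lay on the same side of the other 3, against 57.6% of all tested genes. Members were lower in the low-share libraries in 29 cases, among them TCF7L2, NKD2, FZD1 and WNT10A, and higher in 12, among them WNT11, WIF1 and SFRP1 (ENSDARG00000057678).

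**Figure D1:**
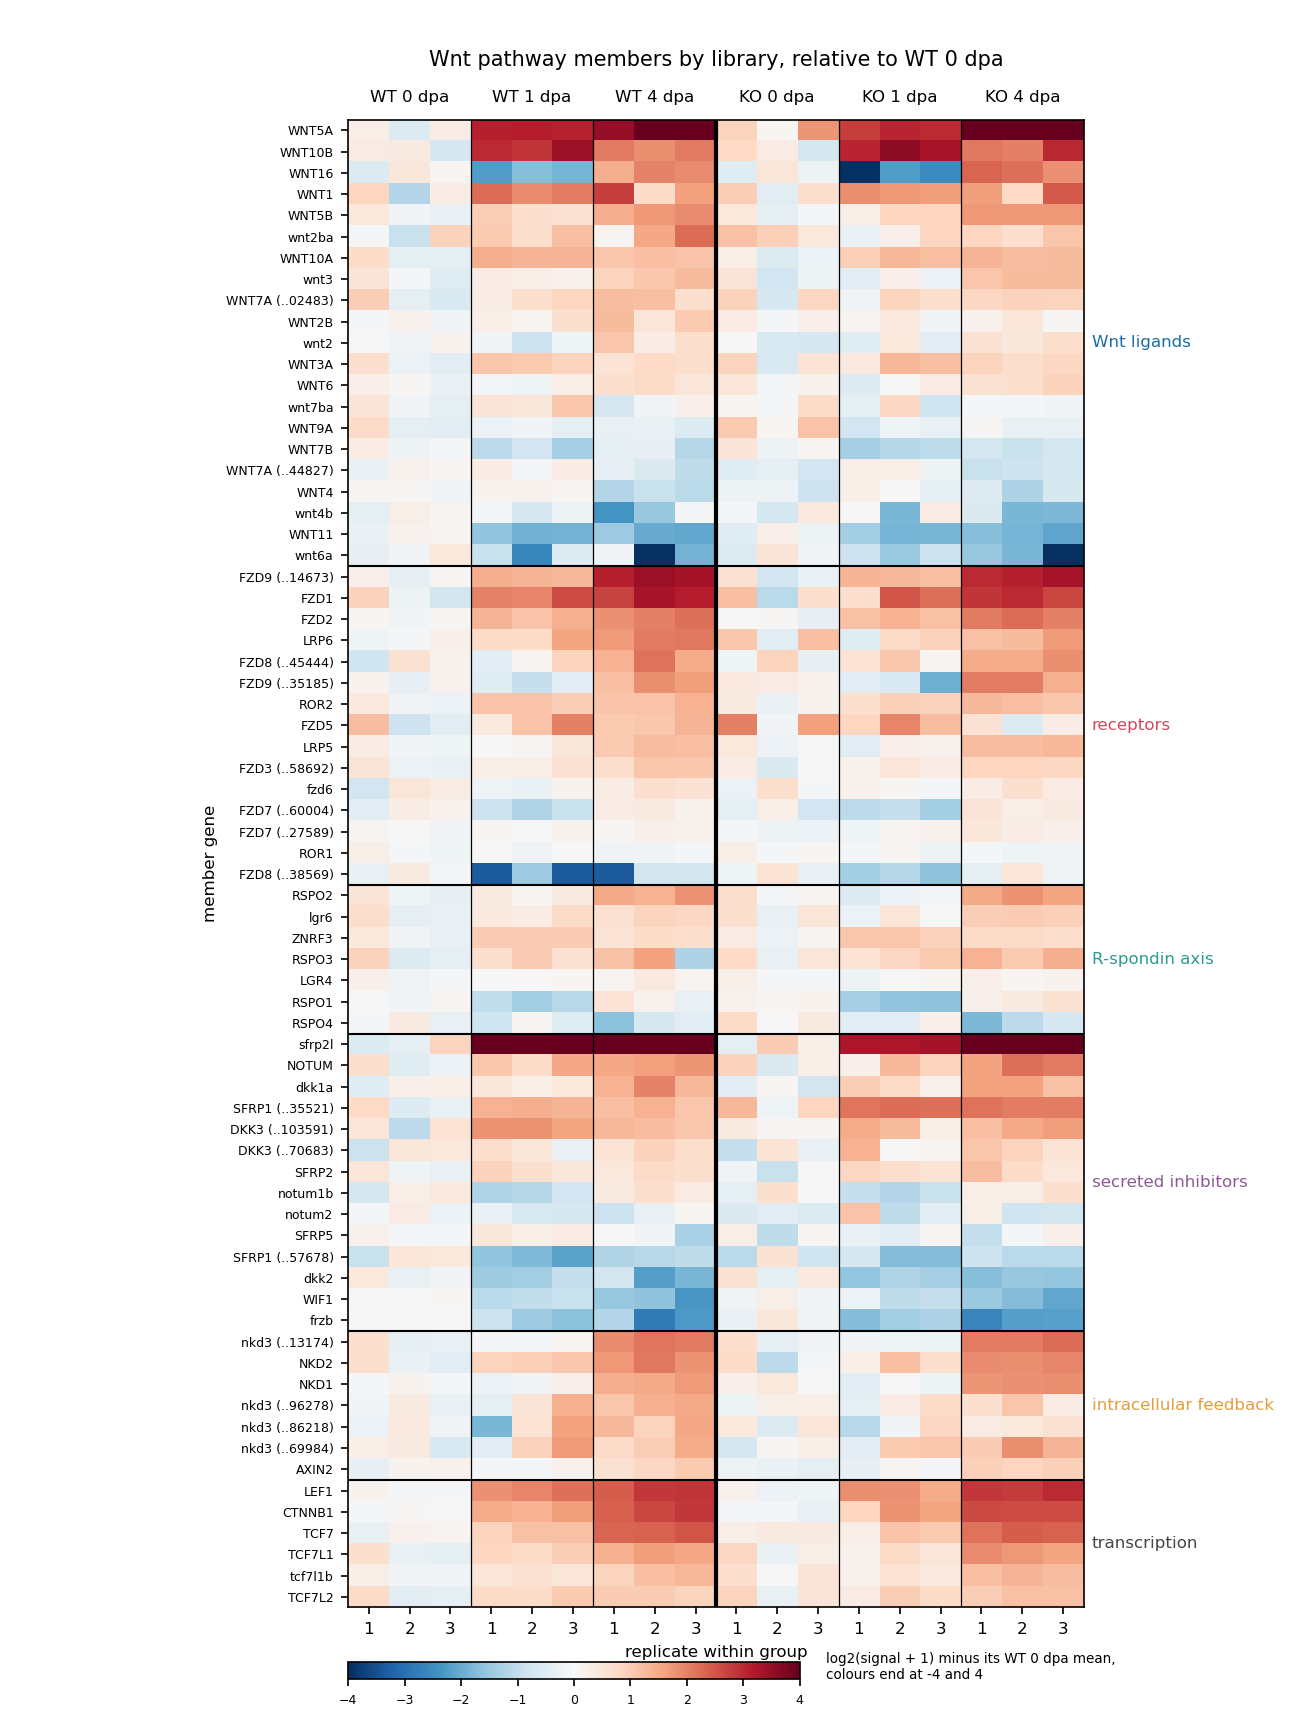
Heat map of the 70 tested members (rows, by role) in the 18 libraries (columns, by group and replicate), as log2(normalised count + 1) minus the mean of the WT 0 dpa libraries, with shortened IDs for copies and a colour scale that ends at 4 in either direction. WNT5A, WNT10B, sfrp2l, FZD1, LEF1 and CTNNB1 are high in WT and KO libraries after amputation, and WNT11, WIF1, frzb and dkk2 are low. In KO 1 dpa replicate 1, a low-share library, FZD1 and WIF1 lie nearer the uncut level than in replicates 2 and 3.

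In WT fins at 1 dpa, 22 of the 70 tested members rose and 11 fell relative to 0 dpa. Of all tested genes, 40.2% were called, 19.1% higher and 21.1% lower. The median log2 change was 0.34 over members and -0.03 over all tested genes. With the share of the dominant genes as a covariate, 14 members rose and 9 fell, beside 20.8% of all tested genes, and the median over members was -0.07. Without the low-share libraries it was 0.18. At 4 dpa against 0 dpa, 38 members rose and 8 fell, where 55.6% of all tested genes were called, 25.9% higher and 29.6% lower, and the median was 1.01 over members and -0.03 over all. From 1 to 4 dpa, 21 members rose and 3 fell, where 13.8% were called, 7.17% higher and 6.61% lower. Without the low-share libraries, the median over members at 4 against 0 dpa was 0.72, with replicate 1 as the only WT library of 0 dpa. From 1 to 4 dpa the median was 0.57 with or without them, since all WT libraries of those times were kept. With the share of the dominant genes as a covariate, 22 members were called at 4 against 0 dpa in WT, 16 higher and 6 lower, in place of 46, beside 15.4% of all tested genes. As share and time are confounded in WT, what this fit removes cannot be told from the change over time.

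In KO fins, 16 members rose and 11 fell at 1 dpa, beside 29.3% of all tested genes called, 15.4% higher and 13.9% lower. At 4 dpa against 0 dpa, 37 members rose and 8 fell, beside 49% of all tested genes, 23.3% higher and 25.7% lower. From 1 to 4 dpa, 26 rose and 3 fell, beside 27.9%, 11.6% higher and 16.2% lower. The median log2 changes of the members were 0.15, 0.81 and 0.51 in these comparisons, against -0.03, -0.02 and -0.02 over all tested genes. At 1 dpa the median over members was -0.08 with the share covariate, where 17 rose and 16 fell beside 36.8% of all tested genes, and 0.04 without the low-share libraries.

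**Figure D2:**
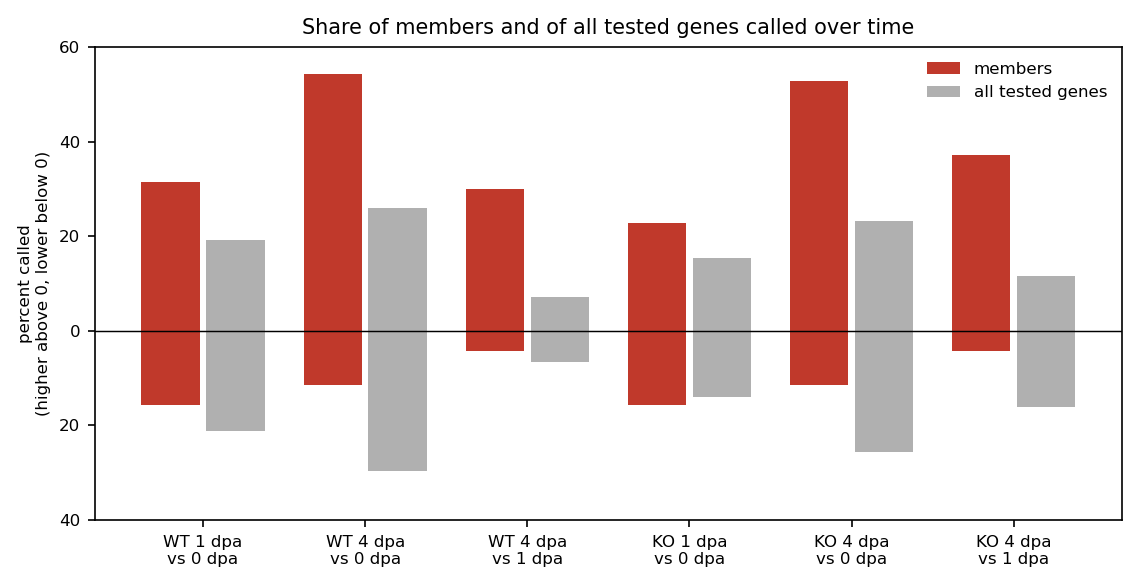
Percent of the 70 tested members (red) and of all 22779 tested genes (grey) that were called higher (above 0) or lower (below 0) in each comparison over time. At 4 dpa against 0 dpa, 38 members were higher and 8 lower in WT and 37 and 8 in KO, while over all tested genes the lower calls outnumbered the higher ones.

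Scaling changes these splits. With signals rescaled to the reads outside the 5 dominant genes, the median of all tested genes moved to 0.76, 0.72 and -0.07 in WT at 1 against 0, 4 against 0 and 4 against 1 dpa, and to 0.42, 0.87 and 0.42 in KO. On that scale 38 members were called higher and 4 lower in WT at 1 dpa, beside 38.1% and 7.63% of all tested genes. They were 51 and 3 at 4 against 0 dpa, beside 41.4% and 15.5%, and 12 and 1 at 4 against 1 dpa, beside 2.86% and 9.32%. In KO they were 16 and 3 at 1 dpa, beside 18.8% and 5.21%, 48 and 3 at 4 against 0 dpa, beside 45.6% and 11%, and 26 and 0 at 4 against 1 dpa, beside 12.1% and 8.2%. Of the 204 called changes of members over time, 0 turned sign under the scalings of edgeR or DESeq2, 3 did under the rescaling and 8 with the share of the dominant genes as a covariate. The 3 were the falls of WNT7B at 4 against 0 dpa in WT and KO and that of WNT7A (ENSDARG00000044827) in WT, and relative to the shifted median of all genes 0 of them turned. Share and time are confounded in WT, and at 4 dpa also in KO. The 8 were all in WT, and all 8 also turned relative to the median. They were TCF7L2, NOTUM and NKD2 at 1 against 0 dpa and TCF7L2, WNT7A (ENSDARG00000002483), SFRP1 (ENSDARG00000057678), WNT6 and lgr6 at 4 against 0 dpa.

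Markers of cell types moved over the same times. The summed normalised counts of 11 basal and intermediate epidermal markers were 1105 to 2342 k (k, 1e3) in WT at 0 dpa, 493 to 592 k at 1 dpa and 331 to 424 k at 4 dpa, and in KO 1106 to 2334, 545 to 1046 and 307 to 379.7 k. Those of 22 fibroblast and blastema markers were 129 to 165, 384 to 475 and 554 to 668 k in WT and 105 to 146, 256 to 492 and 606 to 624 k in KO. Those of 14 osteoblast markers were 94.0 to 127, 43.8 to 53.1 and 89.1 to 103 k in WT and 75.3 to 118, 44.9 to 61.0 and 108 to 122 k in KO. The 11 superficial epidermal markers summed to 806 to 3240.0, 314 to 438 and 162 to 224 k in WT and 719.9 to 4049, 429 to 918 and 149 to 197 k in KO. Leukocyte markers, 19 in all, summed to 124 to 268, 28.9 to 37.3 and 33.9 to 45.1 k in WT and 143 to 244, 27.6 to 51.2 and 23.6 to 32.2 k in KO, and 10 nerve and Schwann cell markers to 4.70 to 6.64, 2.39 to 2.69 and 1.81 to 2.49 k in WT and 4.85 to 7.08, 2.48 to 3.24 and 1.69 to 1.91 k in KO. Sums of 12 endothelial markers stood highest at 4 dpa, with 2.02 to 2.60, 2.66 to 3.06 and 4.34 to 4.80 k in WT and 2.49 to 2.71, 2.60 to 2.90 and 4.76 to 4.79 k in KO. At 4 against 0 dpa in WT, 0 markers of the first list rose and 8 fell, and 14 fibroblast and blastema markers rose and 2 fell. For superficial epidermis they were 0 and 10 of 11 tested, for leukocytes 2 and 5 of 13, for nerve 1 and 5 of 8. For endothelium they were 6 and 0 of 10, for osteoblasts 5 and 1 of 11, for pigment cells 3 and 5 of 12. For skeletal muscle they were 1 and 0 of 7. Over all tested genes, 25.9% rose and 29.6% fell. In KO, in the same order of lists, they were 1 and 8, 18 and 0, 0 and 5, 2 and 5, and 1 and 5. The last 4 lists gave 6 and 0, 5 and 0, 4 and 6, and 1 and 0, beside 23.3% and 25.7% of all tested genes. At 1 dpa, 2 of the 13 tested leukocyte markers rose and 4 fell in WT (median log2 -0.24), and 3 and 2 in KO (-0.09). The drop of the leukocyte sum at 1 dpa thus does not stand for most of that list. Of the 22 fibroblast and blastema markers, 7 rose and 6 fell at 1 dpa in WT (median log2 0.24), and 8 and 6 in KO (0.29). The rise of their sum at 1 dpa thus does not stand for most of their list either. Of the osteoblast markers, bglap, a COL10A1 copy and ALPL were listed at 0 in all libraries, as were 3 MFAP4 copies of the leukocyte list, pecam1a of the endothelial list and nefma of the nerve list. In bulk tissue, fewer cells of a type and less RNA per cell cannot be told apart, and the part of these shifts in the changes of the members was not tested.

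Among the 21 tested ligands, 6 rose and 3 fell in WT at 1 dpa, and 10 rose and 4 fell at 4 against 0 dpa, while KO counts were 5 and 4, and 7 and 4. Over all tested genes, 19.1% rose and 21.1% fell in WT at 1 dpa and 25.9% and 29.6% at 4 dpa, and in KO 15.4% and 13.9%, and 23.3% and 25.7%. At 1 dpa the ligand counts differed from these shares by only a few genes. The largest rise from 0 to 4 dpa among them was that of WNT5A, a ligand best known for non-canonical signalling. Its normalised counts were 54.7, 30.5 and 56.2 in WT at 0 dpa, 401, 413 and 388 at 1 dpa and 534, 777 and 918 at 4 dpa. In KO they were 84.4, 48.1 and 156 at 0 dpa, 318, 384 and 370.4 at 1 dpa and 905, 830.0 and 753 at 4 dpa. Every library at 1 and 4 dpa lay above all libraries of 0 dpa in both genotypes. The WT mean rose 8.50-fold at 1 dpa and 15.8-fold at 4 dpa (log2 3.97, SE 0.33, limma adjusted p = 2.07e-07), and the KO mean 3.72-fold and 8.64-fold (log2 3.25, SE 0.33, limma adjusted p = 1.37e-06). The further rise from 1 to 4 dpa was called in KO (log2 1.21, SE 0.33, limma adjusted p = 0.013) and not in WT (log2 0.86, SE 0.33, limma adjusted p = 0.0913), and in KO the call was lost without KO 1 dpa replicate 1 (log2 1.13).

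WNT5B, its close relative, climbed in 2 steps. WT libraries held 1244, 859 and 769 at 0 dpa, 1842, 1481 and 1416 at 1 dpa and 2540.3, 3094 and 3468 at 4 dpa. KO libraries held 1259.7, 715 and 886 at 0 dpa, 1125, 1717 and 1693 at 1 dpa and 3107, 3094 and 3121 at 4 dpa. At 4 dpa all 6 libraries exceeded every earlier library, whereas KO values at 0 and 1 dpa overlapped. Means at 4 dpa were 3.17-fold of those at 0 dpa in WT and 3.26-fold in KO (log2 1.68, SE 0.23, limma adjusted p = 3.32e-05 and log2 1.74, SE 0.23, limma adjusted p = 2.31e-05). The rise at 1 dpa was smaller (log2 0.74, SE 0.23, limma adjusted p = 0.0186 in WT and log2 0.68, SE 0.23, limma adjusted p = 0.037 in KO) and was not called in WT without the low-share libraries. In WT its call was also lost without WT 0 dpa replicate 2 (log2 0.68), WT 0 dpa replicate 3 (log2 0.60) or WT 1 dpa replicate 1 (log2 0.63), and in KO without KO 0 dpa replicate 2 (log2 0.49), KO 0 dpa replicate 3 (log2 0.65), KO 1 dpa replicate 2 (log2 0.57) or KO 1 dpa replicate 3 (log2 0.58). The WT rise from 1 to 4 dpa was not called without WT 1 dpa replicate 2 (log2 0.90) or WT 4 dpa replicate 3 (log2 0.84). With signals rescaled to the reads outside the dominant genes, this WT rise and the KO rise at 1 dpa were not called.

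WNT10A and WNT10B, canonical ligands, rose at 1 dpa and stayed above the uncut level at 4 dpa. WNT10A was at 685, 320.4 and 316 in WT at 0 dpa, 1116, 1048 and 1065 at 1 dpa and 881, 942 and 915 at 4 dpa, and in KO at 494, 284 and 348 at 0 dpa, 791, 1033 and 938 at 1 dpa and 1054, 966 and 983 at 4 dpa. Libraries of 1 and 4 dpa were all above those of 0 dpa, and WT replicate 1 at 0 dpa, which is not a low-share library, stood highest among uncut fins. The change at 1 dpa was 2.44-fold in WT (log2 1.39, SE 0.25, limma adjusted p = 5.30e-04) and 2.45-fold in KO (log2 1.32, SE 0.25, limma adjusted p = 8.42e-04). Without the low-share libraries the WT rise at 4 dpa was not called. WNT10B was near the lower limit of the filter at 0 dpa, at 9.77, 9.83 and 4.32 in WT and 13.9, 9.62 and 4.21 in KO. Its highest levels were those of 1 dpa, with 66.8, 60.4 and 89.8 in WT and 69.9, 101 and 82.2 in KO. By 4 dpa WT libraries held 34.6, 29.9 and 34.6 and KO libraries 35.8, 33.8 and 67.6. The rise at 1 dpa was 9.08-fold in WT (log2 3.08, SE 0.40, limma adjusted p = 2.81e-05) and 9.13-fold in KO, and the lower level at 4 than at 1 dpa was not called in either genotype (log2 -1.09, SE 0.40, limma adjusted p = 0.0798, and log2 -0.93, SE 0.40, limma adjusted p = 0.0956).

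WNT16, a ligand known in mammals for its role in bone mass, followed another course, falling at 1 dpa and then rising above the uncut level. In WT it was at 30.1, 60.9 and 48.3 at 0 dpa, 8.71, 13.1 and 11.6 at 1 dpa and 124, 179 and 168 at 4 dpa. The KO values were 31.3, 63.5 and 38.4 at 0 dpa, 1.43, 8.72 and 6.76 at 1 dpa and 227, 210.4 and 162 at 4 dpa. The 3 times did not overlap in either genotype. The fall at 1 dpa was 4.16-fold in WT (log2 -1.93, SE 0.44, limma adjusted p = 0.00296) and 7.88-fold in KO (log2 -2.94, SE 0.44, limma adjusted p = 1.10e-04), and the rise from 1 to 4 dpa was 14.1-fold (log2 3.70, SE 0.44, limma adjusted p = 2.76e-05) and 35.5-fold (log2 5.13, SE 0.44, limma adjusted p = 5.28e-07). Both KO calls were kept in 27 of 27 alternative settings. KO replicate 1 at 1 dpa, a low-share library, was the lowest of its group. Its value of 1.43 lay under 2.14, the signal of 3 reads in that library. The other KO values of 1 dpa, 8.72 and 6.76, also rest on few reads. The sizes of the 7.88-fold fall and the 35.5-fold rise in KO are therefore limited by counting error.

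Other ligands fell. WNT11, a ligand of the non-canonical class, was at 653, 902 and 848 in WT at 0 dpa, 263, 210.2 and 212 at 1 dpa and 287, 194 and 188 at 4 dpa, and KO values at 0 dpa were 572, 909 and 688 against 309.7, 219.8 and 221 at 1 dpa and 241, 218 and 181 at 4 dpa. In each genotype, levels after amputation lay below all uncut ones, and 1 and 4 dpa overlapped (log2 -1.85, SE 0.22, limma adjusted p = 1.01e-05 in WT and log2 -1.74, SE 0.22, limma adjusted p = 1.66e-05 in KO for 4 against 0 dpa). WNT7B fell at 1 dpa in both genotypes (log2 -1.05 in WT and -1.30 in KO). WNT7A (ENSDARG00000044827), a copy of the ligand that patterns the dorsal side of the mouse limb, fell from 1 to 4 dpa, with WT values of 863, 1178 and 1105 at 0 dpa, 1288, 1006 and 1269 at 1 dpa and 831, 698 and 509.5 at 4 dpa. In KO it was at 746, 796 and 608 at 0 dpa, 1254, 1230.0 and 907 at 1 dpa and 557, 584 and 638 at 4 dpa. For the 4 against 1 dpa change the groups did not overlap (log2 -0.82, SE 0.20, limma adjusted p = 0.0116 in WT and log2 -0.92, SE 0.20, limma adjusted p = 0.0035 in KO). It rose at 1 dpa in KO (log2 0.65, SE 0.20, limma adjusted p = 0.0212), and the WT change at that time was not called (log2 0.18, SE 0.20, limma adjusted p = 0.486). The KO rise at 1 dpa was not called without KO 0 dpa replicate 3 (log2 0.54), KO 1 dpa replicate 1 (log2 0.57) or KO 1 dpa replicate 2 (log2 0.58), and the WT fall from 1 to 4 dpa was not called without WT 1 dpa replicate 1 (log2 -0.76) or WT 4 dpa replicate 3 (log2 -0.63). WNT4 also fell from 1 to 4 dpa in both genotypes (log2 -1.17 in WT and -0.75 in KO). Among the remaining ligands, wnt3 rose at 4 dpa in both (log2 1.08 and 1.36), WNT2B, WNT6, WNT1 and the other copy of WNT7A were called in WT but not KO at 4 against 0 dpa (WNT6 and this WNT7A copy turned sign with the share covariate), and WNT9A and wnt6a fell in KO. The difference between genotypes was called for 0 of these. WNT1 held 44.5, 9.97 and 19.8 in WT at 4 dpa, where 3 reads gave a signal of 7.42 to 7.47. Without WT 4 dpa replicate 1, its fold of means at 4 against 0 dpa was 2.22 in place of 3.69. The values of wnt6a in KO at 4 dpa were 6.71, 5.20 and 0, where 3 reads gave 3.35 to 4.06. Both genes thus rest on few reads.

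Of 15 tested receptors, 4 rose and 2 fell at 1 dpa in each genotype, and at 4 against 0 dpa 9 rose in WT and 10 in KO with 0 falls. Of all tested genes, 19.1% rose and 21.1% fell at 1 dpa in WT, and 15.4% and 13.9% in KO. The receptor rises exceeded the rising shares by only a few genes. At 4 dpa 25.9% and 23.3% of all tested genes rose while 29.6% and 25.7% fell. FZD9 (ENSDARG00000014673), a Frizzled receptor, had the largest rise. It was at 82.4, 56.0 and 77.1 in WT at 0 dpa, 195, 184 and 178 at 1 dpa and 623, 777 and 722 at 4 dpa. In KO it was at 108, 41.4 and 58.4 at 0 dpa, 183, 174 and 163 at 1 dpa and 566, 616 and 702 at 4 dpa. The 3 times formed separate ranges in both genotypes, with a rise to 4 dpa of 9.85-fold in WT (log2 3.30, SE 0.26, limma adjusted p = 1.16e-07) and 9.07-fold in KO (log2 3.27, SE 0.26, limma adjusted p = 9.98e-08). The second copy, FZD9 (ENSDARG00000035185), instead stood lowest at 1 dpa, with 61.7, 44.2 and 62.7 in WT at 0 dpa, 39.2, 28.9 and 40.6 at 1 dpa and 129, 204 and 178 at 4 dpa. The KO values were 73.5, 69.3 and 61.5 at 0 dpa, 41.4, 35.8 and 13.5 at 1 dpa and 234, 231 and 152 at 4 dpa. The decrease at 1 dpa was called in KO (log2 -1.29, SE 0.34, limma adjusted p = 0.00955) and not in WT (log2 -0.62, SE 0.34, limma adjusted p = 0.159), and the rise from 1 to 4 dpa was called in both (4.70-fold in WT, 6.80-fold in KO). The KO call at 1 dpa was lost without KO 1 dpa replicate 3 (log2 -0.80).

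FZD1 rose as well, but its uncut values spread widely. They were 118, 54.0 and 36.7 in WT and 142, 28.9 and 96.3 in KO, lower in each low-share library than in the others. At 1 dpa WT libraries held 249, 241 and 382 and KO libraries 98.5, 355 and 290.5, where the low-share KO library was again the lowest. At 4 dpa they held 406, 613 and 549 and 454, 496 and 402, all above the earlier uncut values. The mean rose 7.51-fold in WT (log2 3.04, SE 0.54, limma adjusted p = 2.52e-04) and 5.06-fold in KO (log2 2.59, SE 0.54, limma adjusted p = 0.001) at 4 dpa. Without WT 0 dpa replicate 1, the WT fold was 11.5. The KO rise at 1 dpa (log2 1.54, SE 0.54, limma adjusted p = 0.0401) kept its call in 17 of 27 alternative settings and lost it without KO 0 dpa replicate 2 (log2 0.88), KO 0 dpa replicate 3 (log2 1.74), KO 1 dpa replicate 2 (log2 1.19), KO 1 dpa replicate 3 (log2 1.33), KO 4 dpa replicate 1 (log2 1.54), KO 4 dpa replicate 2 (log2 1.54) or KO 4 dpa replicate 3 (log2 1.54). FZD2 rose in steps in both genotypes, with log2 changes of 1.32 and 2.02 at 1 and 4 dpa in WT and 1.35 and 2.20 in KO. FZD7 (ENSDARG00000060004) fell at 1 dpa (log2 -0.98 in WT and -0.83 in KO) and rose from 1 to 4 dpa (log2 1.24 and 1.48).

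FZD8 (ENSDARG00000038569) stayed at low values, with 7.03, 11.8 and 8.65 in WT at 0 dpa, 0, 2.63 and 0 at 1 dpa and 0, 4.98 and 4.95 at 4 dpa. KO libraries held 7.83, 13.5 and 7.36 at 0 dpa, 2.85, 3.49 and 2.25 at 1 dpa and 6.71, 13.0 and 8.12 at 4 dpa. Its fall in WT at 1 dpa was called (log2 -2.70, SE 0.71, limma adjusted p = 0.00704) but 2 of the 3 libraries had no read, and the call was lost without the low-share libraries. The other copy of FZD8 rose at 4 dpa in both genotypes (log2 1.68 and 1.49).

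The co-receptor gene LRP5 rose late, with a WT mean of 1598 at 0 dpa, 1787 at 1 dpa and 3548 at 4 dpa, and a KO mean of 1685, 1598 and 3797 (log2 1.00 and 1.28 from 1 to 4 dpa). LRP6 rose at 4 dpa in WT (log2 1.97, SE 0.40, limma adjusted p = 7.56e-04), and in KO its change was not called (log2 0.76, SE 0.40, limma adjusted p = 0.129), with uncut KO values of 316, 111 and 351, the lowest of them in the low-share library. ROR2, a receptor tyrosine kinase for WNT5A, rose at 1 dpa in both genotypes (log2 1.09 and 0.77) and remained higher at 4 dpa (log2 1.23 and 1.11). For its relative ROR1 no change over time was called, and its 6 log2 changes over time lay between -0.21 and -0.03.

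In the R-spondin axis of 7 tested genes, the secreted ligands moved in different directions. RSPO2 was at 216, 132 and 118 in WT at 0 dpa, 193, 154 and 191 at 1 dpa and 433, 396 and 527 at 4 dpa, and in KO at 243, 144 and 158 at 0 dpa, 105, 128 and 145 at 1 dpa and 428, 521 and 449 at 4 dpa. The libraries of 4 dpa lay above all others, while 0 and 1 dpa overlapped. From 1 to 4 dpa it rose 2.52-fold in WT (log2 1.32, SE 0.24, limma adjusted p = 0.00153) and 3.69-fold in KO (log2 1.88, SE 0.24, limma adjusted p = 3.58e-05). This WT rise was not called with signals rescaled to the reads outside the dominant genes. RSPO1 dipped at 1 dpa, with 234, 220.1 and 256 in WT at 0 dpa, 118, 88.7 and 110.1 at 1 dpa and 346, 269 and 193 at 4 dpa, and with 263, 250.1 and 261 at 0 dpa, 92.8, 78.5 and 76.6 at 1 dpa and 270.5, 307 and 359.8 at 4 dpa in KO. All 6 libraries of 1 dpa lay below all others. It fell 2.24-fold in WT (log2 -1.16, SE 0.20, limma adjusted p = 4.06e-04) and 3.13-fold in KO (log2 -1.64, SE 0.20, limma adjusted p = 1.74e-05) and then rose 2.55-fold and 3.78-fold.

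RSPO4, known for its role in human nail growth, was low throughout, at 31.6, 43.2 and 26.7 in WT at 0 dpa, 18.9, 34.2 and 23.2 at 1 dpa and 9.89, 19.9 and 24.7 at 4 dpa. KO values were 57.0, 33.7 and 42.6 at 0 dpa, 24.3, 24.4 and 38.3 at 1 dpa and 8.94, 15.6 and 20.3 at 4 dpa. It fell at 4 against 0 dpa in KO (log2 -1.55, SE 0.39, limma adjusted p = 0.00425), and in WT the change was not called (log2 -0.92, SE 0.39, limma adjusted p = 0.0571). ZNRF3, the ubiquitin ligase that R-spondins remove and itself a feedback target of the pathway, rose at 1 dpa from a WT mean of 1522 to 2999 and a KO mean of 1569.5 to 3056 (log2 1.01, SE 0.18, limma adjusted p = 4.69e-04 and log2 0.98, SE 0.18, limma adjusted p = 6.89e-04). It was still higher at 4 dpa (log2 0.65 and 0.69). Of the receptors of R-spondins, lgr6 rose at 4 dpa in both genotypes (log2 0.78 and 0.72), a call kept in 20 of 27 alternative settings in WT and 11 of 27 in KO. With the share of the dominant genes as a covariate the WT change of lgr6 turned to -0.26. For LGR4 and for the ligand gene RSPO3 no change over time was called.

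**Figure D3:**
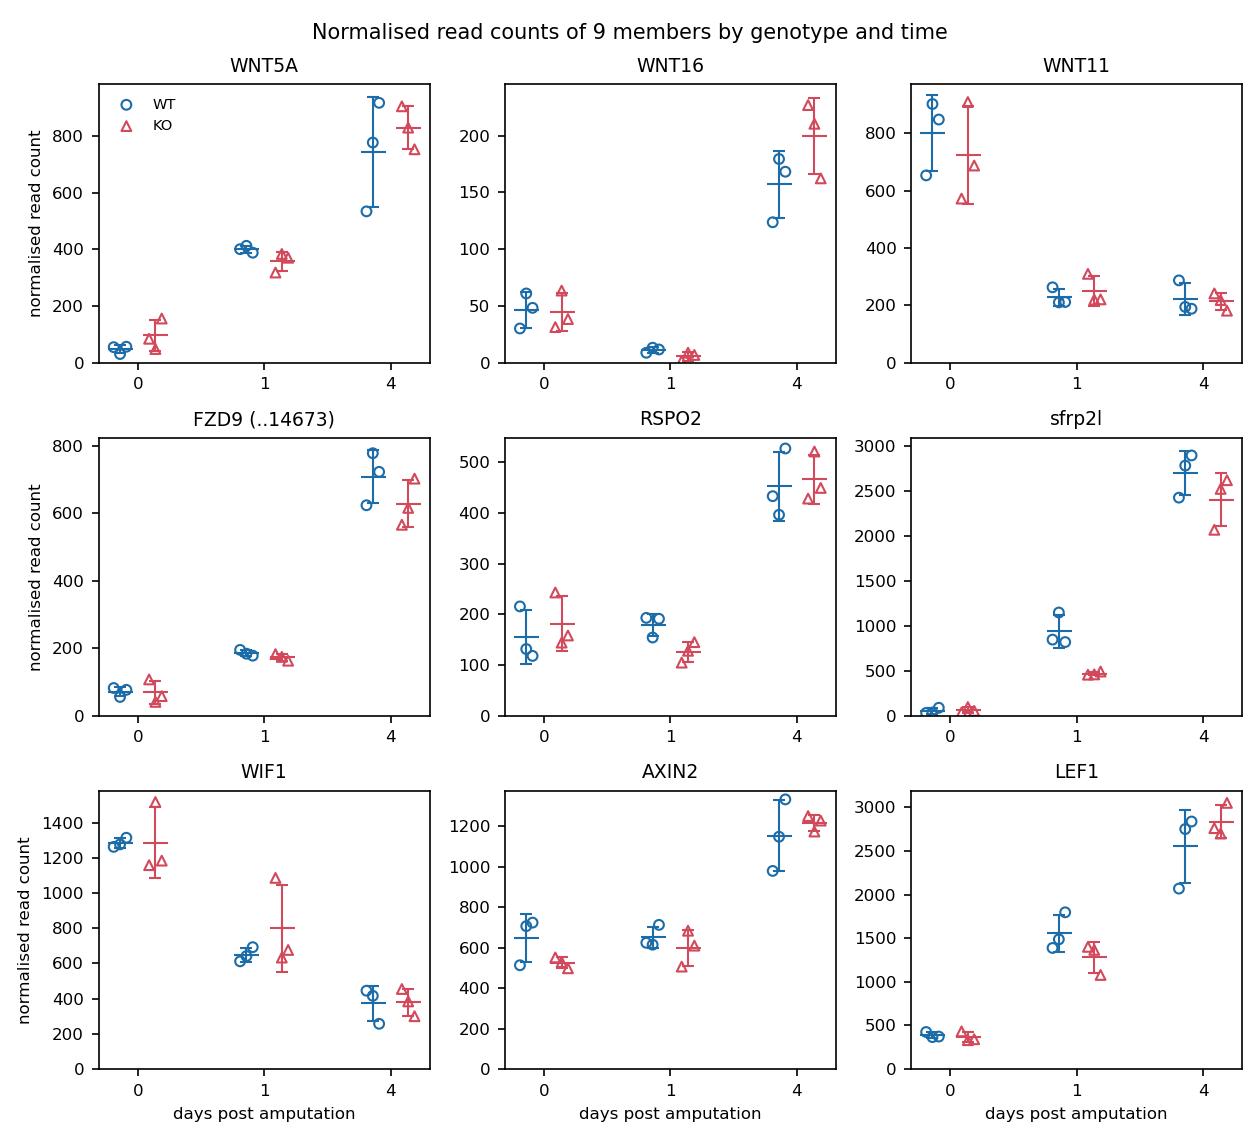
Normalised read counts of 9 members at 0, 1 and 4 dpa, with WT as circles, KO as triangles, a symbol per library, a dash for the mean and bars for the SD (n = 3). WNT5A, the FZD9 copy, sfrp2l and LEF1 climb in both genotypes, WNT16 dips at 1 dpa, RSPO2 and AXIN2 rise from 1 to 4 dpa, and WNT11 and WIF1 fall.

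The 14 tested secreted inhibitors moved in both directions, with 4 rising and 5 falling in WT at 1 dpa and 5 and 4 at 4 dpa, and with 4 and 4, and 7 and 3 in KO. All tested genes likewise moved both ways, 19.1% higher and 21.1% lower in WT at 1 dpa and 25.9% and 29.6% at 4 dpa. In KO these shares were 15.4% and 13.9% at 1 dpa and 23.3% and 25.7% at 4 dpa. The riser with the largest change of all members was sfrp2l, a secreted Frizzled-related gene. Its values were 32.0, 37.3 and 90.1 in WT at 0 dpa, 849, 1150.3 and 821 at 1 dpa and 2429, 2786 and 2899 at 4 dpa. KO libraries held 36.5, 98.1 and 55.8 at 0 dpa, 458, 461 and 493 at 1 dpa and 2071, 2526 and 2623 at 4 dpa. The times formed separate ranges in both genotypes, and at 1 dpa all KO libraries lay below all WT libraries. The mean rose 17.7-fold at 1 dpa and 50.9-fold at 4 dpa in WT (log2 5.79, SE 0.34, limma adjusted p = 7.47e-09) and 7.42-fold and 37.9-fold in KO (log2 5.33, SE 0.34, limma adjusted p = 1.08e-08). Without WT 0 dpa replicate 3, a low-share library and the highest of its group, the WT folds were 27.1 and 78.0.

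SFRP1 (ENSDARG00000035521) rose at 1 dpa in both genotypes and is described with the genotype comparison. The other copy, SFRP1 (ENSDARG00000057678), stood apart between low-share and other libraries at 0 dpa, with 546, 1413 and 1366 in WT and 479, 1506 and 580.2 in KO. The values of 1 dpa were 337, 296 and 230.4 for WT and 658, 305 and 304 for KO, where the low-share KO library was again the highest. Those of 4 dpa were 445, 473 and 505 for WT and 572, 481 and 478 for KO. Its falls were called in WT (log2 -1.84, SE 0.41, limma adjusted p = 0.00262 at 1 dpa, log2 -1.10, SE 0.41, limma adjusted p = 0.0314 at 4 dpa) and not in KO, the fall at 4 dpa was not called without the low-share libraries or without WT 0 dpa replicate 2 (log2 -0.87), WT 0 dpa replicate 3 (log2 -0.89), WT 4 dpa replicate 1 (log2 -1.06), WT 4 dpa replicate 2 (log2 -1.10) or WT 4 dpa replicate 3 (log2 -1.15), and with the share as a covariate its sign turned (log2 0.71, adjusted p = 0.128).

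dkk1a, which encodes a Dickkopf protein that blocks LRP5 and LRP6, was highest at 4 dpa. It was at 149, 241 and 248 in WT at 0 dpa, 286, 246 and 278 at 1 dpa and 544, 817 and 524 at 4 dpa, and at 152, 220.3 and 123 at 0 dpa, 409, 353 and 235 at 1 dpa and 639, 631 and 465 at 4 dpa in KO. The libraries of 4 dpa were above all others, with a rise from 0 dpa of 2.96-fold in WT (log2 1.57, SE 0.27, limma adjusted p = 2.07e-04) and 3.51-fold in KO (log2 1.83, SE 0.27, limma adjusted p = 6.00e-05). In KO the rise at 1 dpa was also called (log2 1.01, SE 0.27, limma adjusted p = 0.00988), in WT it was not (log2 0.38, SE 0.27, limma adjusted p = 0.278). The KO call at 1 dpa was lost without KO 0 dpa replicate 3 (log2 0.82). dkk1b was listed at 0 in all libraries. By contrast dkk2 fell in both genotypes (log2 -1.59 and -1.79 at 4 against 0 dpa).

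WIF1, which binds Wnt ligands outside the cell, fell in steps. It was at 1262, 1276 and 1314 in WT at 0 dpa, 612, 642 and 693 at 1 dpa and 445, 416 and 257 at 4 dpa. KO libraries held 1158, 1517 and 1184 at 0 dpa, 1086, 633 and 677 at 1 dpa and 455, 384 and 300.3 at 4 dpa, the highest value of 1 dpa being that of the low-share library. The 3 times did not overlap in either genotype, and the fall to 4 dpa was 3.44-fold in WT (log2 -1.82, SE 0.23, limma adjusted p = 1.67e-05) and 3.39-fold in KO (log2 -1.77, SE 0.23, limma adjusted p = 2.00e-05). With signals rescaled to the reads outside the dominant genes, the falls at 1 dpa and from 1 to 4 dpa were not called in either genotype. The KO fall at 1 dpa was also not called without KO 0 dpa replicate 2 (log2 -0.60), KO 1 dpa replicate 2 (log2 -0.57) or KO 1 dpa replicate 3 (log2 -0.62). The WT fall from 1 to 4 dpa was also not called without WT 1 dpa replicate 1 (log2 -0.88), WT 1 dpa replicate 2 (log2 -0.84), WT 1 dpa replicate 3 (log2 -0.79) or WT 4 dpa replicate 3 (log2 -0.59). frzb, another secreted Frizzled-related gene, fell likewise. WT values were 588, 586 and 574 at 0 dpa, 319, 212 and 185 at 1 dpa and 257, 82.2 and 119 at 4 dpa, and KO values 486, 794 and 524 at 0 dpa, 176, 223 and 245 at 1 dpa and 91.7, 125 and 129.9 at 4 dpa. All later libraries lay below the uncut ones, by 3.81-fold in the WT mean (log2 -2.09, SE 0.33, limma adjusted p = 1.01e-04) and 5.21-fold in the KO mean (log2 -2.35, SE 0.33, limma adjusted p = 3.64e-05) at 4 dpa. Without WT 4 dpa replicate 1, the WT fold was 5.80.

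NOTUM, a secreted enzyme that inactivates Wnt ligands by removing their lipid, was at 193, 84.5 and 100.1 in WT at 0 dpa, 248, 195 and 346 at 1 dpa and 346, 369 and 406 at 4 dpa. In KO it was at 223, 78.9 and 142 at 0 dpa, 136, 292 and 222 at 1 dpa and 363, 551 and 506 at 4 dpa. At 4 dpa all libraries exceeded the uncut ones of their genotype, with a rise of 2.96-fold in WT (log2 1.65, SE 0.38, limma adjusted p = 0.00161) and 3.20-fold in KO (log2 1.77, SE 0.38, limma adjusted p = 0.00119). The rise at 1 dpa in WT (log2 1.11, SE 0.38, limma adjusted p = 0.0276) was not called without the low-share libraries or without WT 0 dpa replicate 2 (log2 0.87), WT 0 dpa replicate 3 (log2 1.00), WT 1 dpa replicate 1 (log2 1.13) or WT 1 dpa replicate 3 (log2 0.89), and with the share as a covariate it was -0.04. notum1b dipped at 1 dpa (log2 -1.04 in WT and -1.09 in KO) and rose from 1 to 4 dpa (log2 1.49 and 1.39).

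Intracellular feedback genes rose at 4 dpa. Of the 7 tested, 5 rose and 0 fell against 0 dpa in each genotype, while at 1 dpa 1 rose in WT and 0 in KO. Over all tested genes the rises at 4 dpa were 25.9% in WT and 23.3% in KO, and those at 1 dpa 19.1% and 15.4%. AXIN2, a scaffold of the destruction complex and a widely used target gene of canonical signalling, was at 513, 707 and 724 in WT at 0 dpa, 624, 615 and 713 at 1 dpa and 979.5, 1149 and 1333 at 4 dpa. In KO it was at 552, 529 and 498 at 0 dpa, 507, 684 and 610.2 at 1 dpa and 1251, 1174 and 1228 at 4 dpa. The libraries of 0 and 1 dpa overlapped and those of 4 dpa lay above all of them. From 1 to 4 dpa the mean rose 1.77-fold in WT (log2 0.82, SE 0.17, limma adjusted p = 0.0036) and 2.03-fold in KO (log2 1.03, SE 0.17, limma adjusted p = 3.31e-04). This WT rise was not called with signals rescaled to the reads outside the dominant genes.

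The naked cuticle genes, whose proteins bind Dishevelled and dampen the signal, were also highest at 4 dpa. NKD1 was at 252, 289 and 247 in WT at 0 dpa, 222, 242 and 298 at 1 dpa and 715, 757 and 851 at 4 dpa, and at 299, 350.2 and 265 at 0 dpa, 197, 257 and 225 at 1 dpa and 885, 935 and 956 at 4 dpa in KO. The rise from 1 to 4 dpa was 3.04-fold in WT (log2 1.61, SE 0.16, limma adjusted p = 4.80e-06) and 4.09-fold in KO (log2 2.03, SE 0.16, limma adjusted p = 2.25e-07), and earlier times overlapped in WT. nkd3 (ENSDARG00000013174) was at 146, 71.7 and 75.6 in WT at 0 dpa, 90.0, 88.0 and 98.5 at 1 dpa and 346, 416 and 393 at 4 dpa. In KO it was at 149.6, 72.1 and 83.1 at 0 dpa, 84.9, 82.0 and 79.9 at 1 dpa and 384, 395 and 437 at 4 dpa. Each library of 4 dpa was above all others (log2 2.05, SE 0.27, limma adjusted p = 7.66e-05 in WT and log2 2.29, SE 0.27, limma adjusted p = 1.55e-05 in KO from 1 to 4 dpa). NKD2 was at 705, 366 and 331 in WT at 0 dpa, 812, 850.1 and 927 at 1 dpa and 1477, 1899 and 1519 at 4 dpa, with 740.1, 214 and 416 at 0 dpa, 520.2, 1022 and 683 at 1 dpa and 1637, 1589.8 and 1703 at 4 dpa in KO. It rose 3.49-fold in WT (log2 1.88, SE 0.36, limma adjusted p = 4.56e-04) and 3.60-fold in KO (log2 2.02, SE 0.36, limma adjusted p = 2.98e-04) at 4 against 0 dpa. Its rise at 1 dpa in WT (log2 0.97, SE 0.36, limma adjusted p = 0.0421) kept its call in 11 of 27 alternative settings. It was lost when any 1 of several libraries was left out, those of other groups included, with a lowest value among these of log2 0.76, without WT 0 dpa replicate 3. It was also lost without the low-share libraries, and with the share as a covariate it was -0.067. The other 3 copies of nkd3 had group means of 7.81 to 26.4, and reads may be shared among them.

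All 6 transcription genes rose in WT at 1 dpa and at 4 against 0 dpa, and in KO 2 of 6 rose at 1 dpa and 5 at 4 dpa, with 0 falls. Among all tested genes, 19.1% and 25.9% were higher in WT and 15.4% and 23.3% in KO. With the share of the dominant genes as a covariate, the WT changes of TCF7L2 turned sign at both times. CTNNB1, which encodes β-catenin, was at 2475, 2654 and 2593 in WT at 0 dpa, 7127, 6818 and 8171 at 1 dpa and 13589, 16516 and 18095 at 4 dpa. In KO it was at 2441, 2415 and 2107 at 0 dpa, 4642, 8953 and 7643 at 1 dpa and 16135, 15541 and 15548 at 4 dpa. The 3 times were separate in both genotypes, and at 4 dpa the mean had risen 6.24-fold in WT (log2 2.63, SE 0.20, limma adjusted p = 9.54e-08) and 6.78-fold in KO (log2 2.76, SE 0.20, limma adjusted p = 4.58e-08). Its WT rise from 1 to 4 dpa was not called with signals rescaled to the reads outside the dominant genes.

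LEF1, the nuclear partner of β-catenin and itself a target of the pathway, was at 425, 367 and 372 in WT at 0 dpa, 1388, 1487 and 1797 at 1 dpa and 2068, 2751 and 2837 at 4 dpa. The KO values were 432, 331 and 342 at 0 dpa, 1401, 1366 and 1079 at 1 dpa and 2761, 2699 and 3050.4 at 4 dpa. Replicates were close and the times did not overlap, with rises of 4.01-fold at 1 dpa (log2 2.00, SE 0.17, limma adjusted p = 3.55e-07) and 6.58-fold at 4 dpa (log2 2.70, SE 0.17, limma adjusted p = 1.39e-08) in WT. In KO they were 3.48-fold (log2 1.80, SE 0.17, limma adjusted p = 9.77e-07) and 7.70-fold (log2 2.95, SE 0.17, limma adjusted p = 3.74e-09). Calls of LEF1 against 0 dpa were kept in 27 of 27 alternative settings in both genotypes, while that from 1 to 4 dpa in WT was kept in 22. The latter was lost with signals rescaled to the reads outside the dominant genes. It was also lost without WT 1 dpa replicate 1 (log2 0.63), WT 1 dpa replicate 2 (log2 0.68), WT 4 dpa replicate 2 (log2 0.65) or WT 4 dpa replicate 3 (log2 0.62).

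TCF7, a related nuclear factor, was at 448, 617 and 588 in WT at 0 dpa, 1023, 1242 and 1234 at 1 dpa and 2748, 2820.4 and 3141 at 4 dpa, and at 636, 703 and 701 at 0 dpa, 649, 1192 and 1121 at 1 dpa and 2470.1, 2916 and 2814 at 4 dpa in KO. At 4 dpa it had risen 5.27-fold in WT (log2 2.41, SE 0.20, limma adjusted p = 2.25e-07) and 4.02-fold in KO (log2 2.00, SE 0.20, limma adjusted p = 1.27e-06). The rise at 1 dpa was called in WT (log2 1.09, SE 0.20, limma adjusted p = 6.46e-04) and not in KO (log2 0.49, SE 0.20, limma adjusted p = 0.0785), where the low-share library stood at the uncut level. TCF7L1 and tcf7l1b, often repressors of target genes when β-catenin is absent, rose at 4 dpa in both genotypes (log2 1.55 and 1.14 in WT, 1.47 and 0.86 in KO). TCF7L2 rose in WT (log2 0.85 at 1 dpa and 0.98 at 4 dpa) and was not called at 4 dpa in KO (log2 0.75, SE 0.31, limma adjusted p = 0.0525). With the share covariate its WT changes were -0.01 and -0.22.

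The members were grouped by their course over time, and the share of all tested genes in each course was not counted. In both genotypes, 6 members rose at 1 dpa and again from 1 to 4 dpa. These were CTNNB1, LEF1, FZD2, FZD9 (ENSDARG00000014673), sfrp2l and WNT5B. Another 5 were not called at 1 dpa and rose from 1 to 4 dpa in both, namely LRP5, nkd3 (ENSDARG00000013174), NKD1, RSPO2 and AXIN2. A fall at 1 dpa followed by a rise to 4 dpa was shared for FZD7 (ENSDARG00000060004), WNT16, RSPO1 and notum1b. WNT10A, WNT10B, SFRP1 (ENSDARG00000035521), ZNRF3, ROR2 and FZD1 were higher at 1 and 4 dpa in both with no call between them. In WT at 4 dpa, the rise of SFRP1 (ENSDARG00000035521) was not called without the low-share libraries (log2 0.46) or with the share covariate (0.27). WNT11, frzb, WNT7B and dkk2 were lower at both times with no call between them, and WIF1 fell at each step. Some of these calls were lost with signals rescaled to the reads outside the dominant genes. In WT they included the rises from 1 to 4 dpa of CTNNB1, LEF1, WNT5B, AXIN2 and RSPO2 and the fall of RSPO1 at 1 dpa. In KO they included the rises of WNT5B and FZD1 at 1 dpa. In both genotypes they included the falls of frzb at 1 dpa, of WNT7B at 4 against 0 dpa and of WIF1 at each step. With the share covariate, the WT calls of FZD1 at 1 and 4 dpa and of WNT10A and WNT10B at 4 dpa were lost. That fit also lost the fall of WIF1 at 1 dpa in WT. The rise of SFRP1 (ENSDARG00000035521) was lost there at 1 dpa in WT and at 4 dpa in KO.

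Other genes of the pathway were counted from lists by function in the same fit. Over all tested genes, 25.9% rose and 29.6% fell at 4 against 0 dpa in WT, 23.3% and 25.7% in KO, and at 1 dpa 19.1% and 21.1% in WT and 15.4% and 13.9% in KO. Of 14 tested genes of Wnt secretion and the receptor complex, 6 rose and 0 fell at 4 against 0 dpa in WT, and 7 and 0 in KO. The largest WT changes were those of PTK7, a co-receptor of non-canonical signalling (log2 1.68, SE 0.30, limma adjusted p = 3.02e-04), and DVL3 (ENSDARG00000103462), a copy of a gene for the signal transducer Dishevelled (log2 1.27, SE 0.35, limma adjusted p = 0.00554). Of 25 genes of the destruction complex and β-catenin cofactors, 17 rose and 1 fell at 1 dpa in WT and 13 and 1 at 4 against 0 dpa, with 13 and 1, and 12 and 1 in KO. This list holds tcf3a and tcf3b, whose symbol also stands for E proteins outside the pathway. They are IDs apart from the members TCF7L1 and tcf7l1b, so the counts of this list may include genes outside the pathway. The co-repressor gene tle2a (log2 2.68, SE 0.27, limma adjusted p = 1.99e-06) and ctnnb2, a second β-catenin gene of zebrafish (log2 1.82, SE 0.29, limma adjusted p = 1.26e-04), rose most at 4 dpa. Of 18 planar cell polarity genes, 8 rose and 4 fell in WT at 4 against 0 dpa and 8 and 1 in KO, so that 12 of 18 and 9 of 18 were called, beside 55.6% and 49% of all tested genes. The largest WT changes were rises of 2 copies of PRICKLE1, a core polarity gene, PRICKLE1 (ENSDARG00000040649) (log2 2.56, SE 0.29, limma adjusted p = 4.47e-06) and PRICKLE1 (ENSDARG00000045694) (log2 2.17, SE 0.18, limma adjusted p = 2.04e-07), followed by DAAM2, a formin that binds Dishevelled (log2 1.78, SE 0.20, limma adjusted p = 4.46e-06).

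Among 24 tested genes of 29 that are reported to act downstream of Wnt signalling, 7 rose and 2 fell at 1 dpa in WT and 15 and 3 at 4 against 0 dpa. In KO they were 8 and 2, and 18 and 1. The Dishevelled-binding gene dact2 rose from a WT mean of 39.6 to 1139.9 (log2 4.85, SE 0.23, limma adjusted p = 6.93e-10). The largest fall was that of MYC (ENSDARG00000007241), a copy of the growth regulator gene MYC (log2 -2.95, SE 0.36, limma adjusted p = 1.02e-05 in WT and log2 -2.09, SE 0.36, limma adjusted p = 2.00e-04 in KO at 4 against 0 dpa). SP5, a transcription factor gene and direct target of β-catenin in other vertebrates, rose from 1 to 4 dpa in WT (log2 4.76, SE 0.78, limma adjusted p = 6.05e-04) and in KO (log2 4.41, SE 0.78, limma adjusted p = 7.02e-04). FGF20 (ENSDARG00000007356), the tested one of 2 IDs with the symbol of this growth factor gene, was highest at 1 dpa and fell from 1 to 4 dpa (log2 3.72, SE 0.49, limma adjusted p = 3.27e-05 and log2 -1.62, SE 0.49, limma adjusted p = 0.0376 in WT). Between genotypes, 0 genes of these 4 lists were called at any time or for the average.

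Whether the loss of s1 altered these genes was asked by comparing KO with WT within each time and for the mean of the 3 times. Called members numbered 0 of 70 at 0 dpa, where 0.101% of all tested genes were called, 0 at 1 dpa (0.00439%), 0 at 4 dpa (0.0351%) and 0 for the average (0.14%) in limma. The members at an unadjusted p under 0.05 numbered 4, 4, 3 and 3, beside 4.8%, 2.04%, 4.06% and 3.2% of all tested genes. edgeR called 0 members in each of the 4 comparisons, beside 0.136%, 0.00439%, 0.0176% and 0.145% of all tested genes. DESeq2 called 0 in the single times and 1 for the average, beside 0.421%, 0.0878%, 0.0659% and 0.246%. The averaged log2 differences of the members ranged from -0.30 to 0.98 with a median of -0.02, and 68 of 70 lay within 0.5 of 0. Their standard errors ran from 0.08 to 0.54, and smaller differences than these errors allow were not detectable.

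The member with the smallest p for the average was SFRP1 (ENSDARG00000035521). WT libraries held 455, 185 and 218 at 0 dpa, 690.4, 726 and 678 at 1 dpa and 608, 698 and 574 at 4 dpa, and KO libraries 671, 233 and 479 at 0 dpa, 1177, 1234 and 1231 at 1 dpa and 1204, 1104 and 1093 at 4 dpa. At 1 and at 4 dpa every KO library exceeded every WT library, and at 0 dpa the groups overlapped. KO means were 1.61-fold, 1.74-fold and 1.81-fold those of WT at the 3 times. The averaged difference (log2 0.78, SE 0.19, limma adjusted p = 0.288, unadjusted p = 6.70e-04) did not pass the threshold. It passed in 5 of 26 alternative settings, which were DESeq2 (adjusted p = 0.0305), the share of dominant genes as a covariate (0.0136), without the low-share libraries (0.0038), without WT 0 dpa replicate 1 (0.0229) and without KO 0 dpa replicate 2 (0.00924). Over all 26 settings the log2 difference stayed between 0.67 and 0.92. Without the low-share libraries the limma difference was 0.32 at 0 dpa, 0.82 at 1 dpa and 0.86 at 4 dpa. No library of 4 dpa is low-share, so the difference at 4 dpa was also 0.86 in the main fit. Its call without the low-share libraries rests on the changed estimate of spread alone. Over the settings the adjusted p for the average ran from 0.0038 to 1.00.

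The share of the dominant genes differed between genotypes at 4 dpa, from 87.5% to 90.5% in WT and from 79.0% to 82.9% in KO. Summed fibroblast and blastema markers at that time were 554 to 668 k in WT and 606 to 624 k in KO, so these ranges overlapped. Osteoblast sums did not overlap, with 89.1 to 103 k in WT and 108 to 122 k in KO. Leukocyte sums (33.9 to 45.1 k in WT, 23.6 to 32.2 k in KO) did not overlap either. The same held for skeletal muscle (0.685 to 0.809 k in WT, 0.814 to 0.853 k in KO), while sums of the other lists overlapped. The part of the share or of the marked cell types in the values of SFRP1 (ENSDARG00000035521) was not tested. The other SFRP1 copy had an averaged difference of 0.04 and SFRP2 of -0.05.

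**Figure D4:**
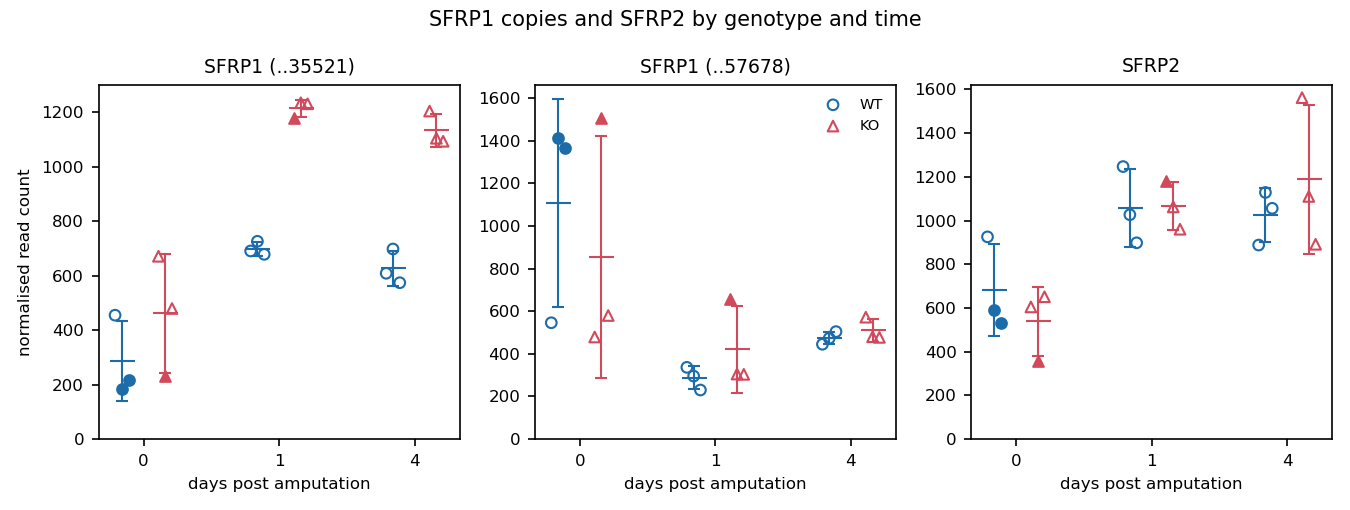
Normalised read counts of both SFRP1 copies and SFRP2 at 0, 1 and 4 dpa, with WT as circles, KO as triangles, filled symbols for the low-share libraries, a dash for the mean and bars for the SD (n = 3). SFRP1 (ENSDARG00000035521) is higher in all KO than in all WT libraries at 1 and 4 dpa, while the other copy differs between low-share and other libraries at 0 dpa.

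The members with the next smallest p for the average were FZD8 (ENSDARG00000038569) (log2 0.98, SE 0.41, limma adjusted p = 1), at counts of at most 13.5, and WNT7A (ENSDARG00000044827) (log2 -0.26, SE 0.12, limma adjusted p = 1). For the latter, KO values lay below WT values at 0 dpa without overlap and overlapped with them at 1 and 4 dpa. At single times, the smallest p belonged to WNT5A at 0 dpa (log2 0.90, SE 0.33, limma adjusted p = 0.802), sfrp2l at 1 dpa (log2 -0.98, SE 0.34, limma adjusted p = 1) and WNT2B at 4 dpa (log2 -0.71, SE 0.26, limma adjusted p = 1), and none of these was called. LEF1 and AXIN2, readouts of canonical signalling, had averaged differences of log2 -0.07, SE 0.10 for LEF1 and log2 -0.11, SE 0.10 for AXIN2.

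Interaction terms compared how the genotypes responded to amputation. In limma, 0 of 70 members were called for the step from 0 to 1 dpa and 0 for that from 0 to 4 dpa, beside 0% and 0% of all tested genes. Members at an unadjusted p under 0.05 numbered 6 and 2, beside 4.17% and 3.9%. edgeR called 0 members for both, beside 0% and 0% of all tested genes, and DESeq2 0, beside 0.022% and 0.00439%. The term for 1 to 4 dpa, added after the data were seen, gave 0 called members in limma, beside 0%, and 1 at an unadjusted p under 0.05, beside 2.62%. The standard errors of these terms, 0.19 to 1.32 on the log2 scale with a median of 0.42, bound what this design can detect, and a call in a single genotype does not show that the genotypes differ.

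Calls of the same direction overlapped between genotypes. At 1 dpa, 13 members rose in both, 59.1% of the WT and 81.3% of the KO risers, and 9 fell in both. At 4 against 0 dpa, 31 rose in both, 81.6% of the WT and 83.8% of the KO risers, and 5 fell in both. From 1 to 4 dpa, 19 rose in both and the same 3 fell. Opposite calls numbered 0 in all 3 comparisons. The 9 members that rose at 1 dpa in WT but were not called in KO were TCF7, TCF7L1, tcf7l1b, TCF7L2, NKD2, NOTUM, WNT3A, WNT1 and DKK3 (ENSDARG00000103591). KO 1 dpa replicate 1, the low-share library, was the lowest of its group for 7 of them and the highest for WNT1 and the DKK3 copy. The 9 were chosen for lacking a KO call, which a low KO library favours. The place of this library was not counted over other genes, and its part in the missing calls was not tested. Without the low-share libraries, which leaves replicate 1 as the only WT library of 0 dpa, the median over members at 1 dpa was 0.18 in WT and 0.04 in KO. Across the 70 members, which are not independent replicates, the WT and KO log2 changes had a Pearson correlation of 0.90 at 1 dpa, 0.93 at 4 against 0 dpa and 0.92 from 1 to 4 dpa. Both sets of changes share the size factors and the shift in dominant genes. The overlap of calls and the correlation were not computed over all tested genes, so they show no trait particular to the members.

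**Figure D5:**
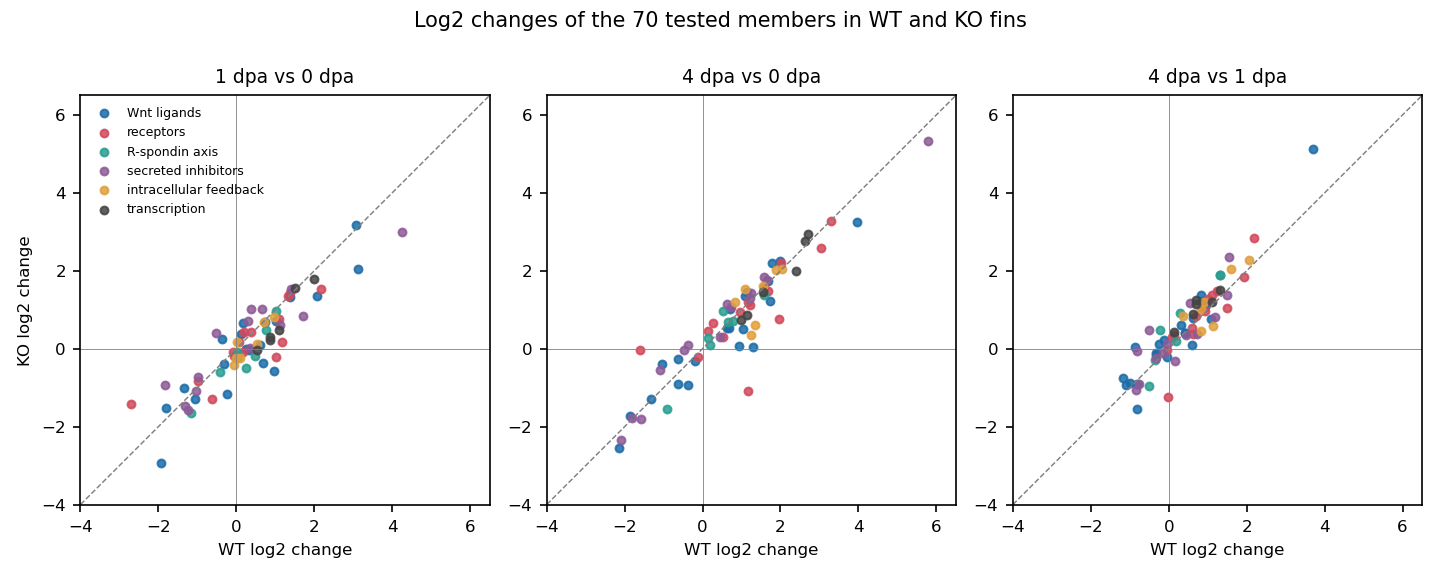
Log2 change in WT (x axis) against that in KO (y axis) for the 70 tested members, coloured by role, in the 3 comparisons over time, with a dashed line where both are equal. Most members lie near the line, with sfrp2l at the upper end for changes from 0 dpa and WNT16 for the change from 1 to 4 dpa.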

How the data were processed

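Bulk RNA from 18 pools of caudal fin was measured with libraries made from 20 ng of total RNA by cDNA synthesis and Tn5 tagmentation and read from both ends at 100 bp (DNBSEQ), per the labels' protocols. Per the submitters' processing notes, the authors used Trim Galore 0.6.7, cutadapt 3.5, STAR 2.7.10 and the genome build danRer11. Reads were counted with summarizeOverlaps, per the name of the deposited table. Strand setting and gene annotation were not given in the sources used here, and a gene cannot be separated from an overlapping or antisense partner. The deposited values are a signal that the authors made by dividing the reads of each gene by a size factor of its library. Whole reads could be recovered for 100% of values within a tolerance of 0.001.

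Samples were grouped by genotype and time from the labels. The main test was limma 3.58.1 in R 4.3.3 on log2 of the signal plus 1, with trended variance, 6 group means and 12 residual degrees of freedom, on genes that reached a signal of 10 in 3 or more libraries. p-values were adjusted by Benjamini-Hochberg over all 22779 tested genes and called at 0.05. Alternatives were edgeR 4.0.16 (quasi-likelihood, TMM) and DESeq2 1.42.0 on the recovered reads, a pseudocount of 5, no filter, rescaling to reads outside the 5 dominant genes (those with the highest summed signal over all libraries), the share of those genes as a covariate, fits without the low-share libraries or with only the groups compared, a replicate block, and each library left out. The scripts were tested on simulated data. The replicate numbers were not used to pair the samples in the main test.

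Symbols came from a gene name table that paired 29201 of 32520 IDs, and 7 of 200 list entries were unmatched. The members and lists were chosen with earlier results of these data known. Values in every library are given for 28 members, namely the up to 3 per role with the largest called change without overlap between groups and a group mean of at least 20, the 3 with the smallest averaged p between genotypes, and 11 fixed genes. WNT11, LRP6 in the uncut KO fins, WNT1 in WT at 4 dpa and wnt6a in KO at 4 dpa were added after their values were seen. For comparison, edgeR on the recovered reads called 12199 genes and limma 12657 at 4 against 0 dpa in WT.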

Additional observations from a re-analysis of the deposited data

How the results depend on the processing

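Most counts of called members kept to within 1.5 times of the main count under every alternative. The exceptions were 22 members (46 in the main analysis) at 4 against 0 dpa in WT with the share of dominant genes as a covariate, and 13 (24) at 4 against 1 dpa in WT with rescaling to reads outside the dominant genes. Between genotypes, where the main count was 0, 1 member was called at 4 dpa without the low-share libraries, and 1 for the average with DESeq2, with the share covariate and without the low-share libraries. The cause was not tested. With each library left out in turn, the counts ranged from 25 to 38, 39 to 48 and 17 to 29 in WT for 1 against 0, 4 against 0 and 4 against 1 dpa, and from 23 to 30, 38 to 47 and 23 to 32 in KO. They ranged from 0 to 0 between genotypes at each time and for the interactions of 1 and 4 against 0 dpa, and from 0 to 1 for the average, with 1 without WT 0 dpa replicate 1 or without KO 0 dpa replicate 2.

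Of 121 changes of named members, 77 kept their direction and side of the threshold under all alternatives. Leaving out a library of a group outside the comparison cannot move the log2 change and bears only on its call. Of 3264 recomputed values, 126 lost the call, 5 gained it and 4 turned sign. With the share covariate these were SFRP1 (ENSDARG00000057678) at 4 against 0 dpa in WT (log2 0.71), NKD2 at 1 dpa in WT (-0.067) and NOTUM at 1 dpa in WT (-0.043), and with rescaling WNT7A (ENSDARG00000044827) at 4 against 0 dpa in WT (0.12). The cause was not tested.

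With the replicate number as a block, the counts were 34, 47 and 23 in WT and 27, 44 and 29 in KO, and 0 between genotypes and for the interactions. Correlations of the deviations of same-numbered samples ranged from -0.61 to 0.74 over 27 pairs, and 8 were over 0.1. For KO against WT at 0 dpa they were 0.74, 0.60 and -0.22 for replicates 1, 2 and 3, with low-share libraries among these samples. Whether same-numbered pools were handled together cannot be told from these values. Members with few reads, such as FZD8 (ENSDARG00000038569), are limited by counting error.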
